A study of Homo sapiens with 8 samples.

Results

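The genes described here encode the cyclins and cyclin-dependent kinases (CDKs) that carry a cell from G1 into S phase, together with 2 of their brakes. The 10 genes were taken by symbol, all 10 were found among the 18388 genes of the data, and 9 of them had enough reads to be tested. They comprise the D-type cyclins CCND1, CCND2 and CCND3, the E-type cyclins CCNE1 and CCNE2, the kinases CDK2, CDK4 and CDK6, the CDK inhibitor CDKN1B and the retinoblastoma gene RB1.

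D-type cyclins bind CDK4 and CDK6 and are the part of the machinery that responds to growth factors. These complexes phosphorylate the RB1 protein, which releases E2F transcription factors to switch on genes of DNA replication, among them the E-type cyclins that activate CDK2. Inhibitors of the CDKN1 family, such as CDKN1B, bind and restrain cyclin-CDK complexes.

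RNA was measured in U-2OS cells, a human osteosarcoma line that carries the Tet-ON transactivator, by SLAM-Seq. In this method 4-thiouridine (4sU) is built into RNA during a labelling pulse and is later read as T-to-C conversions, so that new and old RNA can be separated. The compared groups were 3 libraries from cells with control siRNA (siControl) and 3 from cells with a pool of siRNAs against CGGBP1 (siCGGBP1), a protein that binds CGG repeats. All 6 had 50 nM siRNA for 72 h and then 75 µM 4sU for 60 min, and the label of every library also names DMSO. A single siControl library with 0 µM and another with 200 µM 4sU entered no test. The labels do not say whether replicates came from separate cultures. The study's methods use N for biological replicates in general, and its figure legends give N as 3 for this experiment. The p-values measure the spread between these libraries. A transient siRNA pool also lowers its target only in part.

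Between 10127519 and 14221516 reads were counted in each of the 6 libraries. The third replicate of each group stood apart, with 48 (siControl) and 133 (siCGGBP1) of 10138 tested genes at 0 reads, against at most 1 in the other 4 libraries. These 2 libraries also had a new-to-total ratio of 0 or none for 57.4% and 59.8% of tested genes. The other 4 had 22.5% to 31.9%. The single siControl libraries resembled the third replicates, with 69 (0 µM 4sU) and 109 (200 µM 4sU) tested genes at 0 reads. With 200 µM 4sU, 55.6% of tested genes had a ratio of 0 or none. CGGBP1 itself had 1076, 1138 and 888 reads in siControl and 184, 118 and 441 reads in siCGGBP1. It was lower in every knockdown library, by a log2 fold change of −2.22 ± 0.39 (SE; edgeR quasi-likelihood test, adjusted p = 0.0138). The call was lost without siControl replicate 1 (adjusted p = 0.0632) or siCGGBP1 replicate 1 (adjusted p = 0.0851). Among the bone and mesenchymal markers, COL1A1, SPARC and VIM were abundant. RUNX2 was low at 102 to 468 reads, and ALPL and BGLAP lay at 0 to 39 reads. Of 5 markers of other cell types, CDH1 and PECAM1 were at 0 reads in all 6 libraries, which allows up to 0.296 counts per 1000000 reads (CPM) in the shallowest, PTPRC and GFAP reached at most 14 reads, and EPCAM had 46 to 184 reads.

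Levels below are CPM scaled by TMM (a factor that aligns the libraries over most genes). The libraries read the 3′ ends of transcripts, about one fragment a molecule, so levels were not divided by transcript length. A gene passed the test at an adjusted p under 0.05 in edgeR. Over all 10138 tested genes, 0.572% passed as higher and 1.21% as lower in siCGGBP1, and 1.41% passed with an absolute log2 fold change above 1. Of the 9 tested genes of the machinery, 1 passed as higher and 2 as lower, all of them with a log2 fold change above 1 in size.

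The D-type cyclins moved in opposite directions. CCND1 (ENSG00000110092, chr11:69641156-69654474, plus strand, GRCh38), the D-type cyclin best known from growth factor signalling, stood at 193, 276 and 253 CPM in siControl and at 95.2, 74.0 and 116 in siCGGBP1. The highest knockdown library thus lay below the lowest control library. CCND1 fell by 1.34 on the log2 scale (SE 0.24; adjusted p = 0.0138), to 0.395 of the control level, with a 95% confidence interval of 0.278 to 0.563. CCND2 (ENSG00000118971, chr12:4269771-4305353, plus strand), a second D-type cyclin that also binds CDK4 and CDK6, went the other way. It stood at 231, 236 and 274 CPM in siControl and at 500, 611 and 738 in siCGGBP1, again without overlap. CCND2 rose 2.49-fold (95% confidence interval 1.87 to 3.33, log2 fold change 1.32 ± 0.19 SE, adjusted p = 0.00566). In bulk libraries such as these, fewer cells that express a gene and less RNA per cell cannot be told apart.

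CCND2 passed the test under all 12 alternative settings, with an adjusted p of at most 0.0333. CCND1 kept its direction in all 12, with log2 fold changes from −1.51 to −1.20. Its adjusted p rose above the threshold when 1 of 4 libraries was left out: siControl replicate 2 (0.0656) or 3 (0.0637), or siCGGBP1 replicate 1 (0.0851) or 2 (0.0644). Without the third replicate of both groups, CCND1 (log2 fold change −1.47, adjusted p = 0.00373) and CCND2 (1.26, adjusted p = 0.00265) both passed. In CPM without TMM scaling, the siControl libraries with 0 and 200 µM 4sU held CCND1 at 180 and 153 and CCND2 at 232 and 222. The compared siControl libraries ran from 190 to 276 for CCND1 and from 227 to 263 for CCND2. The siCGGBP1 libraries ran from 73.4 to 115 for CCND1 and from 496 to 729 for CCND2. For CCND1 both outside libraries thus lay between the compared groups, below every compared siControl library and above every siCGGBP1 library. For CCND2 they lay at or just below the compared siControl range.

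CCND3 (ENSG00000112576, chr6:41934934-42050357, minus strand), the third D-type cyclin, stood at 46.7, 51.9 and 50.9 CPM in siControl and at 40.0, 31.1 and 31.0 in siCGGBP1. The groups did not overlap, but the log2 fold change of −0.55 ± 0.30 (SE) did not pass (adjusted p = 0.386). Groups that do not overlap were common: 12.1% of tested genes were lower and 12.1% higher in this way. Among the 10 genes they were lower for CCND1, CCND3 and CDK4 and higher for CCND2.

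**Figure D1:**
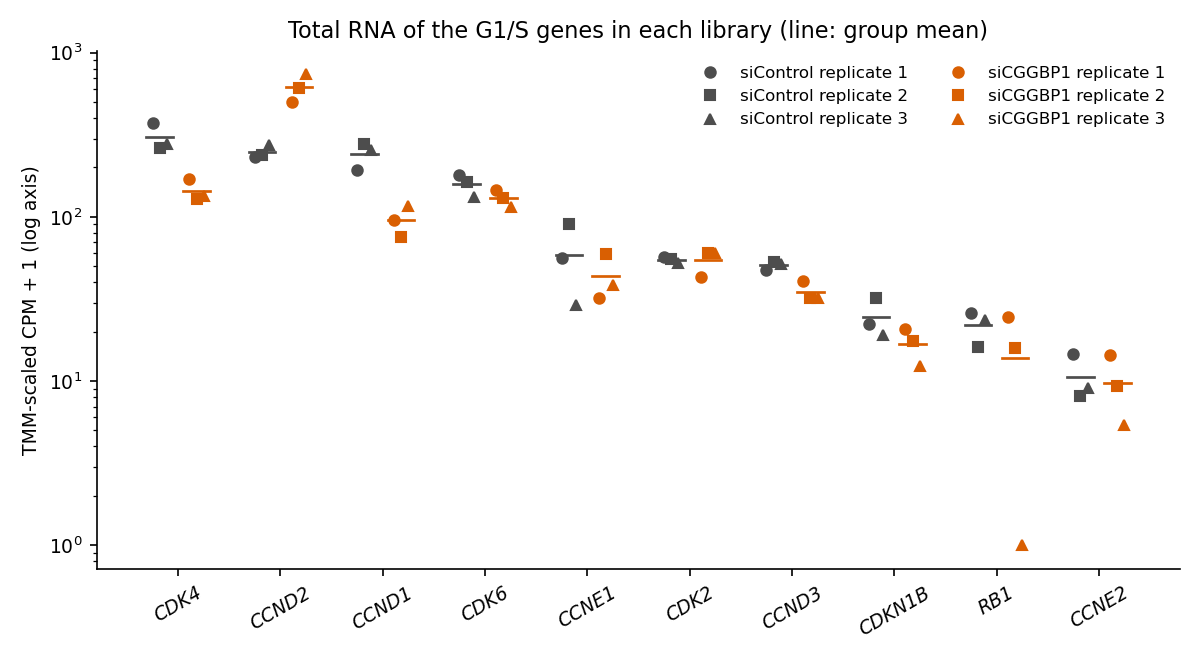
Total RNA of the 10 genes, in TMM-scaled CPM plus 1 on a log axis, with 1 point per library, a marker shape per replicate and a line at each group mean. CCND1 and CDK4 lie lower and CCND2 higher in all 3 siCGGBP1 libraries, and RB1 is at 0 reads in siCGGBP1 replicate 3.

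Within the D-type family, the reads shifted from CCND1 to CCND2. Reads of 1 family within 1 library need no scaling between libraries, so these shares do not depend on normalization. CCND1 made up 41.0%, 48.9% and 43.8% of D-type cyclin reads in siControl and 14.99%, 10.3% and 13.1% in siCGGBP1. The control mean was 44.6 ± 4.01% and the knockdown mean 12.8 ± 2.34% (SD, n = 3 each). CCND2 went from 46.1 ± 3.76% to 82.5 ± 3.39%, and CCND3 from 9.31 ± 0.57% to 4.72 ± 1.43% (SD, n = 3 each). The groups lay apart for each of the 3 shares, and no test was run on them. The shares are parts of 1 total and use the same reads as the tests above, so they are not separate results. The share of CCND3 can fall through more CCND2 reads alone.

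Read as a ratio, siControl held 1.20, 0.856 and 1.08 CCND2 reads for each CCND1 read, and siCGGBP1 held 5.25, 8.25 and 6.34. The siControl libraries outside the comparison, with 0 and 200 µM 4sU, held 1.29 and 1.45, close to the other controls and below every knockdown library. The difference in CCND1 share of −31.8 percentage points ran from −33.6 to −29.6 when any 1 library was left out. Summed over the family, D-type cyclin RNA came to 538 ± 58.7 CPM in siControl (SD, n = 3), against 745 ± 127 after knockdown.

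**Figure D2:**
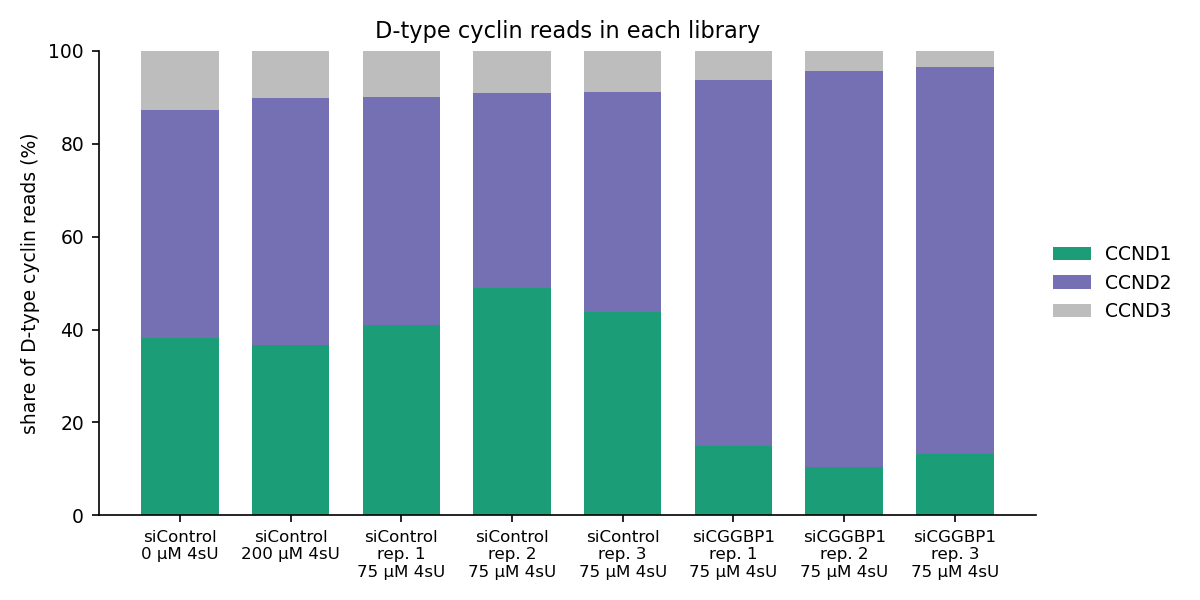
Share of D-type cyclin reads, in percent, that came from CCND1, CCND2 and CCND3 in each of the 8 libraries. CCND1 holds 36.7% to 48.9% in the 5 siControl libraries and 10.3% to 14.99% in the 3 siCGGBP1 libraries.

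The E-type cyclins were lower in abundance and scattered widely. CCNE1 (ENSG00000105173, chr19:29811991-29824312, plus strand), the cyclin that activates CDK2 at the end of G1, stood at 54.8, 89.4 and 28.2 CPM in siControl and at 31.2, 58.6 and 37.4 in siCGGBP1. The groups overlapped, and the log2 fold change of −0.44 ± 0.41 (SE) did not pass (adjusted p = 0.651). The direction was not stable either, since the estimate was 0.02 without siControl replicate 2. CCNE2 (ENSG00000175305), its close relative, had 136, 86 and 93 reads in siControl and 134, 97 and 62 in siCGGBP1, and was left untested for too few reads. CCNE1 gave 83.5 ± 8.0% (SD, n = 3) of E-type reads in siControl, against 82.3 ± 10.7% (SD, n = 3) after knockdown, so the balance of this pair differed by less than its spread.

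Of the 3 kinases, CDK4 was lower after knockdown. CDK4 (ENSG00000135446, chr12:57747727-57756013, minus strand), the main kinase partner of D-type cyclins in many tissues, stood at 373, 263 and 275 CPM in siControl and at 169, 128 and 132 in siCGGBP1. It fell by 1.09 on the log2 scale (SE 0.21; adjusted p = 0.0226), to 0.470 of the control level, with a 95% confidence interval of 0.342 to 0.647. Every knockdown library lay below every control library. The call was lost without siControl replicate 1 (adjusted p = 0.108) or 3 (0.0601) and without siCGGBP1 replicate 1 (0.0732) or 2 (0.0956), while the log2 fold change stayed between −1.23 and −0.92. Without TMM scaling, the siControl libraries with 0 and 200 µM 4sU held 204 and 334 CPM, above the siCGGBP1 libraries at 127 to 167. The compared siControl libraries held 366, 263 and 264 CPM on this scale, so the library with 0 µM lay below all of them.

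CDK6 (ENSG00000105810, chr7:92604921-92836573, minus strand), the other kinase that D-type cyclins activate, stood at 178, 161 and 131 CPM in siControl and at 144, 130 and 114 in siCGGBP1. The groups overlapped, and the log2 fold change of −0.28 ± 0.21 (SE; 95% confidence interval −0.74 to 0.18) did not pass (adjusted p = 0.566). CDK4 gave 65.8 ± 3.28% of the reads of this pair in siControl (SD, n = 3), against 52.4 ± 2.45% after knockdown, again without overlap between the 6 libraries. The siControl library with 0 µM 4sU held 58.5% and the one with 200 µM 66.7%. D-type cyclin reads outnumbered those of their 2 kinases in 2 of the siControl libraries (0.854, 1.33 and 1.42 reads for each kinase read) and in all siCGGBP1 libraries (2.03, 2.78 and 3.60).

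CDK2 (ENSG00000123374, chr12:55966781-55972789, plus strand), the kinase of the E-type cyclins, stood at 56.4, 54.2 and 51.1 CPM in siControl and at 42.1, 59.5 and 59.0 in siCGGBP1. Its log2 fold change was −0.01 ± 0.28 (SE; adjusted p = 0.993), with a 95% confidence interval of −0.61 to 0.59. A change of up to about 1.5-fold in either direction therefore lies within the error of these libraries.

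CGG repeats are the known binding sequence of CGGBP1, so the promoter windows of these genes, 250 bases before to 50 after a RefSeq start (GRCh38.p14), were searched for CGGCGG and CGGCGGCGG, for the E2F word TTTNNCGC, and for CACGTG, the E-box of MYC and related factors, all on both strands. CACGTG was added after the windows had been read, and each CGGCGGCGG also counts as overlapping matches of CGGCGG. RefSeq windows were at hand for 6 of the 10 genes, 9 windows in all. The only RB1 window (chr13:48476200-48476499) lies inside the gene. By the gene positions given here, so do the CDK4, CDKN1B and CCND3 windows and the downstream CDK6 window. CGGCGG was found in 5 of the 9 windows (4 of 6 genes), against 29.6% of 35116 promoters, CGGCGGCGG in 1 window (CDKN1B) against 6.21%, TTTNNCGC in none against 6.89%, and CACGTG in 2 windows against 7.26%. The 3 windows below compare the kinase that fell, its paralogue that did not pass, and the inhibitor gene with the most CGGCGG matches, and the capitals mark any of the 4 words. The CDK4 window (chr12:57752261-57752560, minus strand) holds no CGGCGG and 3 CACGTG. The CDK6 window that spans the upstream start (chr7:92836524-92836823, minus strand) holds 3 CGGCGG and 1 CACGTG, and the CDKN1B window (chr12:12717118-12717417, plus strand) holds 4 CGGCGG.
CDK4: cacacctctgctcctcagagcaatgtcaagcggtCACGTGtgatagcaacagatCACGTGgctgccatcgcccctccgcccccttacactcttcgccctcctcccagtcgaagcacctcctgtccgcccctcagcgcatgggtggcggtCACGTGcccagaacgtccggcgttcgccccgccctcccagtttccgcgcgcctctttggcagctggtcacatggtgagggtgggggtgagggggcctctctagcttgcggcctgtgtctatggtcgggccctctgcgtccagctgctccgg
CDK6: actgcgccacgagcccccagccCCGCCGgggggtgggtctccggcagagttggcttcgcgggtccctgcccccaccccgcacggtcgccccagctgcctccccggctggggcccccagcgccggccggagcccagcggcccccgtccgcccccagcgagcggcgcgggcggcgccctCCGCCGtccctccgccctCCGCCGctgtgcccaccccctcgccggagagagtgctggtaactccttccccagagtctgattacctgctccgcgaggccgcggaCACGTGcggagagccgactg
CDKN1B: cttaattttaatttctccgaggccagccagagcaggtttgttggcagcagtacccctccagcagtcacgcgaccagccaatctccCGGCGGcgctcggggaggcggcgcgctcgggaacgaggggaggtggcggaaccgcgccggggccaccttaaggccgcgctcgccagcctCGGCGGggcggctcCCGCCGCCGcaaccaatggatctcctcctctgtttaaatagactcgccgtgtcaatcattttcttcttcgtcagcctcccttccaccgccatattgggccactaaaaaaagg
CCND1 and CCND2, the other genes that passed, are among the 4 without a window, so these windows hold 1 gene that passed and allow no comparison of matches with the change in RNA. CCND3, CCNE1, CDK6 and CDKN1B had a CGGCGG match, and CDK4 and RB1 had none.

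The brakes of the machinery were low in abundance. CDKN1B (ENSG00000111276, chr12:12685498-12722369, plus strand), which encodes the CDK inhibitor p27, stood at 21.1, 31.1 and 18.2 CPM in siControl and at 19.8, 16.7 and 11.3 in siCGGBP1. The groups overlapped, with a log2 fold change of −0.56 ± 0.47 (SE; adjusted p = 0.604). RB1 (ENSG00000139687, chr13:48303744-48599436, plus strand), whose protein holds E2F factors in check, had 248, 184 and 259 reads in siControl and 236, 173 and 0 in siCGGBP1. The 0 reads of siCGGBP1 replicate 3, which allow up to 0.211 CPM in that library, set its estimate. The log2 fold change was −0.71 ± 1.09 (SE; adjusted p = 0.812) with this library and −0.12 without it.

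Ranked by their mean level in siControl, CDK4 (304 ± 60.0 CPM, SD, n = 3), CCND2 (247 ± 23.5) and CCND1 (241 ± 43.0) led, at or above percentile 92.6 of the tested genes. In library values CDK4 overlapped with CCND2 and CCND2 with CCND1, so their order cannot be read. CDK6 (157 ± 23.7) followed, below all libraries of CCND1. CCNE1 (57.5 ± 30.7), CDK2 (53.9 ± 2.65) and CCND3 (49.8 ± 2.77) overlapped in turn, and CDKN1B (23.5 ± 6.80) overlapped with RB1 (20.9 ± 5.00). CCNE2 was lowest, at 9.61 ± 3.50 CPM, below every RB1 library. In siCGGBP1, CCND2 was the most abundant of the 10 genes in each library.

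**Figure D3:**
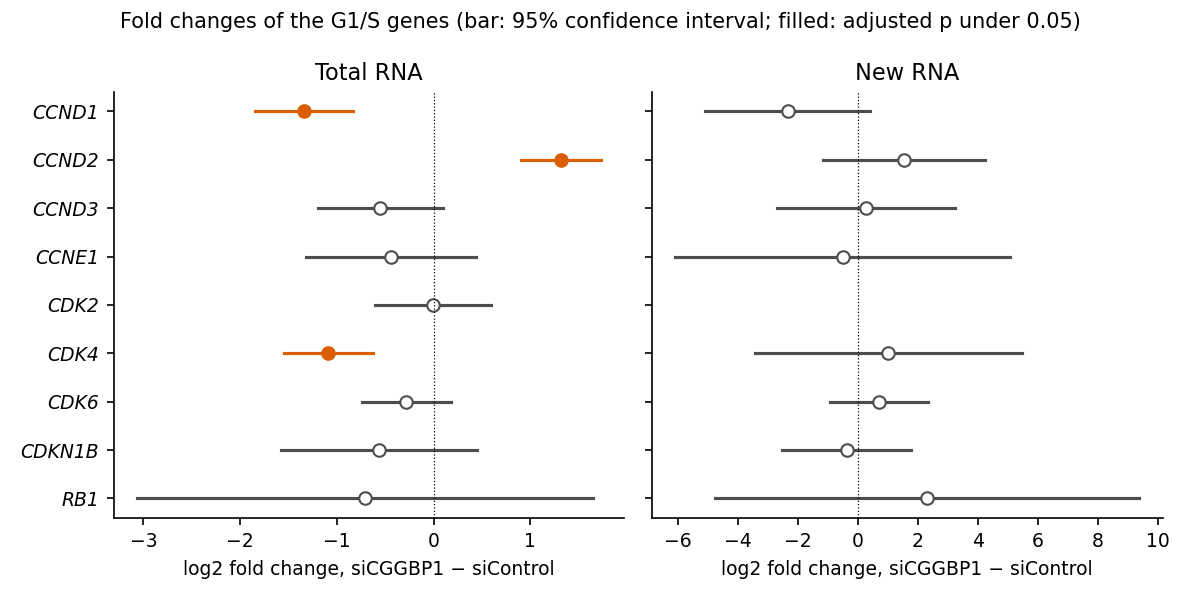
Log2 fold change of siCGGBP1 against siControl with its 95% confidence interval for total RNA (left) and new RNA (right, wider axis), filled where the adjusted p is under 0.05. CCND1, CCND2 and CDK4 pass in total RNA and none of the 9 tested genes passes in new RNA, where CDK2 is not drawn because all its siControl libraries are at 0.

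New RNA, the reads multiplied by the estimated new-to-total ratio, was far less precise. The biological coefficient of variation over all tested genes was 1.78, against 0.399 for total RNA. None of the 9 tested genes passed (edgeR, adjusted p of at least 0.994), 0 had an unadjusted p under 0.05, and DESeq2 also called 0. Over all tested genes, 0.0493% passed in either direction.

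For CCND1, 161, 208 and 174 reads counted as new in the siControl libraries, against 56, 46 and 0 after knockdown. The groups did not overlap, with a fitted log2 fold change of −2.35 and a 95% confidence interval of −5.10 to 0.41. It was −1.76 without siCGGBP1 replicate 3, −3.03 without siCGGBP1 replicate 1 and −1.80 without replicate 3 of both groups. For CCND2 they numbered 74, 23 and 60 without knockdown and 137, 181 and 182 with it, and here the log2 fold change was 1.53 (95% confidence interval −1.18 to 4.25). Both estimates have the sign of the change in total RNA. New RNA is computed from the same total reads, so the shared sign is not a separate result. CCND1 and CCND2 were the 2 genes of the 10 whose groups did not overlap in new RNA. Over all tested genes, new RNA lay apart between the groups as lower in 4.47% and as higher in 2.89%.

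The new RNA of CDK4 had no stable direction. Its new reads numbered 28, 61 and 0 for siControl and 126, 39 and 0 for siCGGBP1, and the groups overlapped. The log2 fold change of new RNA was 1.01, with a 95% confidence interval of −3.44 to 5.46 that also spans the fall in total RNA, and it was −0.64 without siCGGBP1 replicate 1. CDK6 counted 181, 283 and 92 of them in siControl, against 313, 200 and 451 after knockdown, with a log2 fold change of 0.70 (95% confidence interval −0.92 to 2.32). CDK2 was listed with 0 new reads in all siControl libraries and with 0, 39 and 0 in siCGGBP1, so no fold is given.

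The new-to-total ratio gives the share of a gene's RNA that was made during the labelling pulse, and it spread widely among the 10 genes. CDKN1B had the highest mean share in siControl, with 39.1%, 63.0% and 100% in the 3 libraries, although CCNE2 was higher in replicate 1 (48.2%). Its siCGGBP1 libraries gave 52.6%, 81.9% and 100%, and the groups overlapped. The mean in siControl of 67.4 ± 30.7% (SD, n = 3) lay at percentile 99.9 of the tested genes, whose median was 4.52%. CDKN1B had 1.20 to 3.39 T-to-C conversions per 100 covered T in the 6 libraries and 0.0111 in the library without 4sU. Its reads with at least 2 conversions numbered 22, 76 and 113 in siControl and 3, 54 and 0 in siCGGBP1. The ratio of 100% in siCGGBP1 replicate 3 thus rests on reads with a single conversion. The single library with 200 µM 4sU had 0.294 and a ratio of 13.5%, below all 6.

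CDK6 was the kinase with the highest ratio, at 10.2%, 14.5% and 6.11% in siControl and 21.6%, 13.2% and 28.2% in siCGGBP1. The ratios overlapped between the groups, whereas its conversions per 100 covered T did not, at 0.456, 0.547 and 0.257 in siControl and 0.860, 0.691 and 1.09 in siCGGBP1. By conversions RB1 also lay apart, as higher in siCGGBP1. How many of all tested genes lie apart by conversions was not counted, so nothing particular to CDK6 is read from this. CDK4 had 0.74%, 1.93% and 0% in siControl and 7.44%, 2.64% and 0% in siCGGBP1. CDK2 was at 0% in 5 of the 6 libraries.

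CCND1 had a ratio of 8.36%, 6.25% and 5.96% in siControl and of 5.84%, 5.33% and 0% in siCGGBP1. The groups did not overlap, but the 5% and 95% credible limits of siCGGBP1 replicate 1 (4.06% and 8.27%) covered 2 of the control values. By conversions per 100 covered T the CCND1 groups overlapped. CCND2 had 3.21%, 0.80% and 1.89% in siControl and 2.73%, 2.55% and 1.76% in siCGGBP1. Its mean ratios, 1.97 ± 1.21% (siControl) and 2.35 ± 0.52% (siCGGBP1; SD, n = 3), differed by less than the spread, while total CCND2 RNA differed 2.49-fold.

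The ratios of the other genes varied widely between replicates. CCND3 ranged from 7.19% to 23.9% in siControl and from 9.79% to 60.4% in siCGGBP1. CCNE1 ranged from 0% to 24.1% in siControl and CCNE2, with at most 136 reads in a library, from 0% to 48.2%. RB1 gave 3.12%, 0% and 0% in siControl and 8.62% and 14.0% in the 2 siCGGBP1 libraries with reads. In two-sided exact permutation tests over the 10 genes p ranged from 0.1 to 1, where 0.1 is the smallest p that 3 against 3 libraries allow. CCND1 and RB1 were the 2 genes whose ratios did not overlap between the groups, RB1 with 3 against 2 libraries. Over 10136 tested genes with a ratio in 2 or more libraries of each group, the ratio lay apart as lower in 4.25% and as higher in 3.01%.

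**Figure D4:**
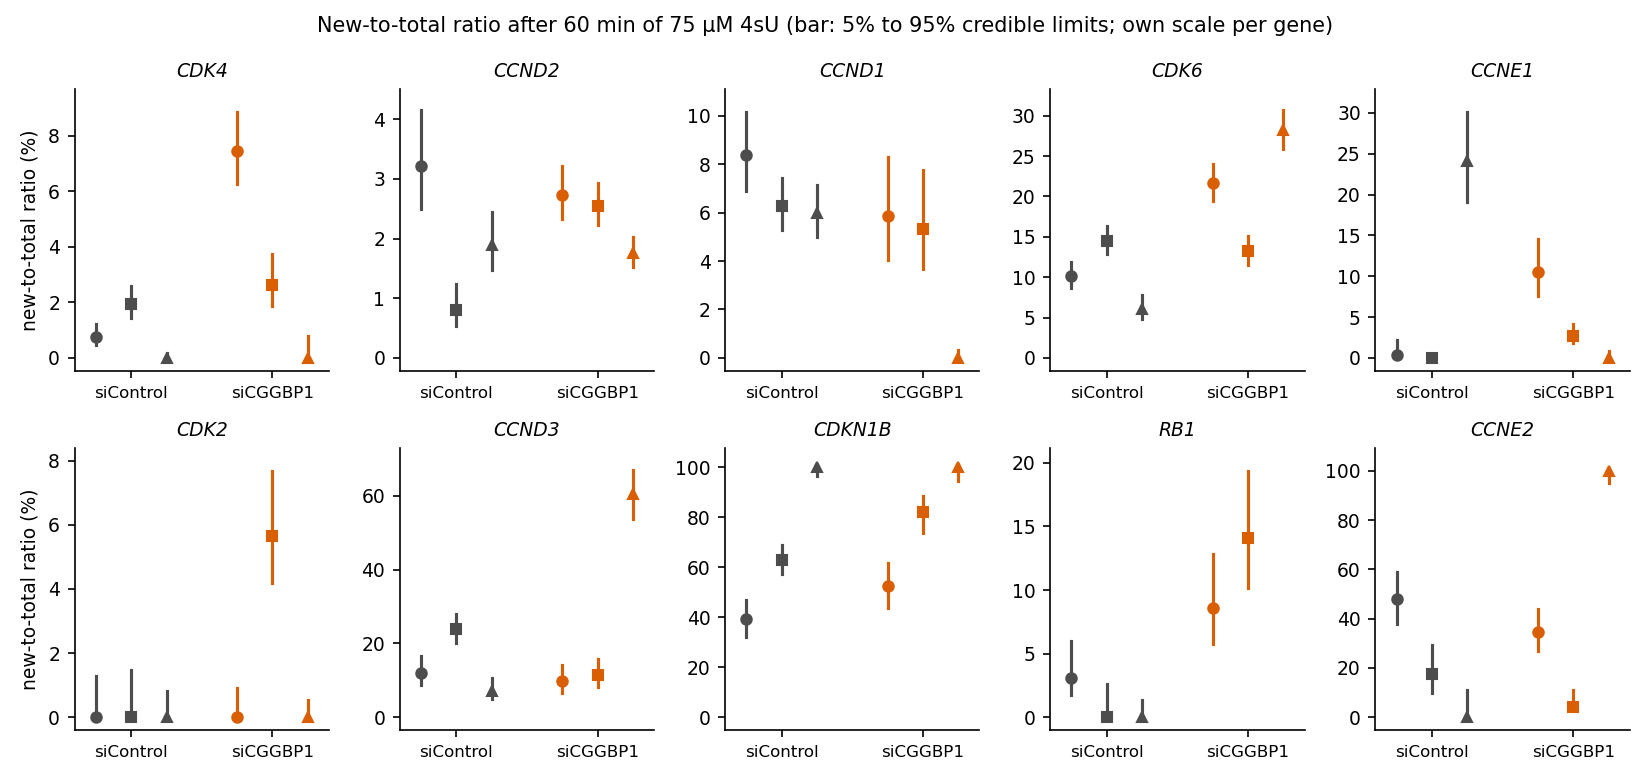
New-to-total ratio of the 10 genes in percent, with 1 point per library (circle, square and triangle for replicates 1, 2 and 3), bars at the 5% and 95% credible limits and an axis of its own for each gene. CDKN1B lies between 39.1% and 100% in all 6 libraries, while CDK2 is at 0% in 5 of them.

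The library without 4sU shows how far T-to-C mismatches alone reach. All 3 D-type cyclins had many of them, at 0.162 (CCND1), 0.161 (CCND2) and 0.407 (CCND3) conversions per 100 covered T, at or above percentile 88.3 of the tested genes, whose median was 0.0130. CCND2 had 0.0732 to 0.173 conversions per 100 covered T in the 6 labelled libraries, and 3 of the 6 lay above the library without 4sU. CCND1 lay above it in 5 of 6 libraries and CCND3 in 3 of 6. CDK2 lay above its own value without 4sU in 3 of 6 libraries and CCNE1 in 5 of 6. RB1 did so in 4 of 6, with 0 reads in siCGGBP1 replicate 3. The labelling of the D-type cyclins, CDK2, CCNE1 and RB1 was thus not detectable above this single library in part of the samples. CDK4, CDK6, CDKN1B and CCNE2 lay above their own value without 4sU in all 6 libraries, with CDK4 at 0.0234 to 0.426 against 0.0189.

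The remaining genes of the G1/S transition were grouped by role into 46 genes, of which CDKN2A and CDKN2B were not analysed here, and 43 were tested. In total RNA 1 passed as higher and 3 as lower. The log2 fold change was below 0 for 33 of the 43, with a median of −0.48, against 49.9% of all tested genes and a median of 0.00.

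Among 4 other CDK inhibitors 1 passed. CDKN1A, which encodes the CDK inhibitor p21, stood at 191, 204 and 231 CPM in siControl and at 375, 498 and 376 in siCGGBP1. It rose by 1.00 ± 0.19 (SE) on the log2 scale (adjusted p = 0.0213), with every knockdown library above every compared control library. The siControl libraries outside the comparison did not share the low control level: without TMM scaling, CDKN1A stood at 367 CPM with 0 µM and at 483 CPM with 200 µM 4sU, against 187 to 221 in siControl and 371 to 494 in siCGGBP1 at 75 µM. It lost the call without any 1 of 5 libraries, all but siCGGBP1 replicate 3, with an adjusted p of up to 0.107. CDKN1C had a log2 fold change of 0.96 and did not pass (adjusted p = 0.367).

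Of 9 tested E2F and DP factors 1 passed, and 8 had a log2 fold change below 0 (list median −0.72). E2F4, a member that represses cell cycle genes together with pocket proteins, stood at 65.7, 59.4 and 55.3 CPM in siControl and at 21.3, 11.9 and 11.3 in siCGGBP1. It fell by 2.02 ± 0.36 (SE) on the log2 scale (adjusted p = 0.0154), the largest fall among the genes of these lists that passed. The call was lost without siControl replicate 1 (adjusted p = 0.0772) or 2 (0.0643) or siCGGBP1 replicate 2 (0.0644). The activators E2F1 (log2 fold change −0.93, adjusted p = 0.262) and E2F2 (−1.12, adjusted p = 0.199) did not pass.

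The E2F target genes of S phase entry all lay below 0, from −1.46 to −0.20 on the log2 scale with a median of −0.61, and 2 of the 15 passed. MCM5, a subunit of the replicative helicase, stood at 145, 162 and 104 CPM in siControl and at 55.0, 65.1 and 29.9 in siCGGBP1, and fell by 1.46 ± 0.31 (SE; adjusted p = 0.0346). MCM3, another subunit, stood at 369, 427 and 415 in siControl and at 270, 217 and 174 in siCGGBP1, and fell by 0.87 ± 0.20 (SE; adjusted p = 0.0492). MCM3 lost its call without any 1 library (adjusted p from 0.0851 to 0.145), without replicate 3 of both groups (0.0667) and with a filter of 10 reads (0.0572). Of the 6 fits that left out 1 library, MCM5 kept its call only in that without siCGGBP1 replicate 3 (adjusted p from 0.0447 to 0.129 over the 6 fits). By unadjusted p, 9 of the 15 were under 0.05 and DESeq2 called 7, against 16.4% and 6.11% of all tested genes.

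None of the tested genes passed among the 2 pocket proteins, the 5 CDK activators and the 8 ubiquitin ligase subunits that degrade G1/S proteins. At an unadjusted p under 0.05, reached by 16.4% of all tested genes, they counted 0, 1 and 1, and DESeq2 called 0, 1 and 1. CDC25A, the phosphatase that removes inhibitory phosphate from CDK2, stood at 49.8, 84.2 and 46.7 CPM in siControl and at 23.0, 31.9 and 16.0 in siCGGBP1 (log2 fold change −1.35 ± 0.37 SE, adjusted p = 0.0883). SKP2, the ubiquitin ligase subunit that recognises the CDKN1B protein, stood at 69.5, 57.7 and 108 in siControl and at 20.9, 14.4 and 38.9 in siCGGBP1 (−1.66 ± 0.40 SE, adjusted p = 0.0552). Neither pair of groups overlapped, although neither passed. RBL1, a relative of RB1, had a log2 fold change of −0.73 ± 0.42 (SE; adjusted p = 0.428).

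**Figure D5:**
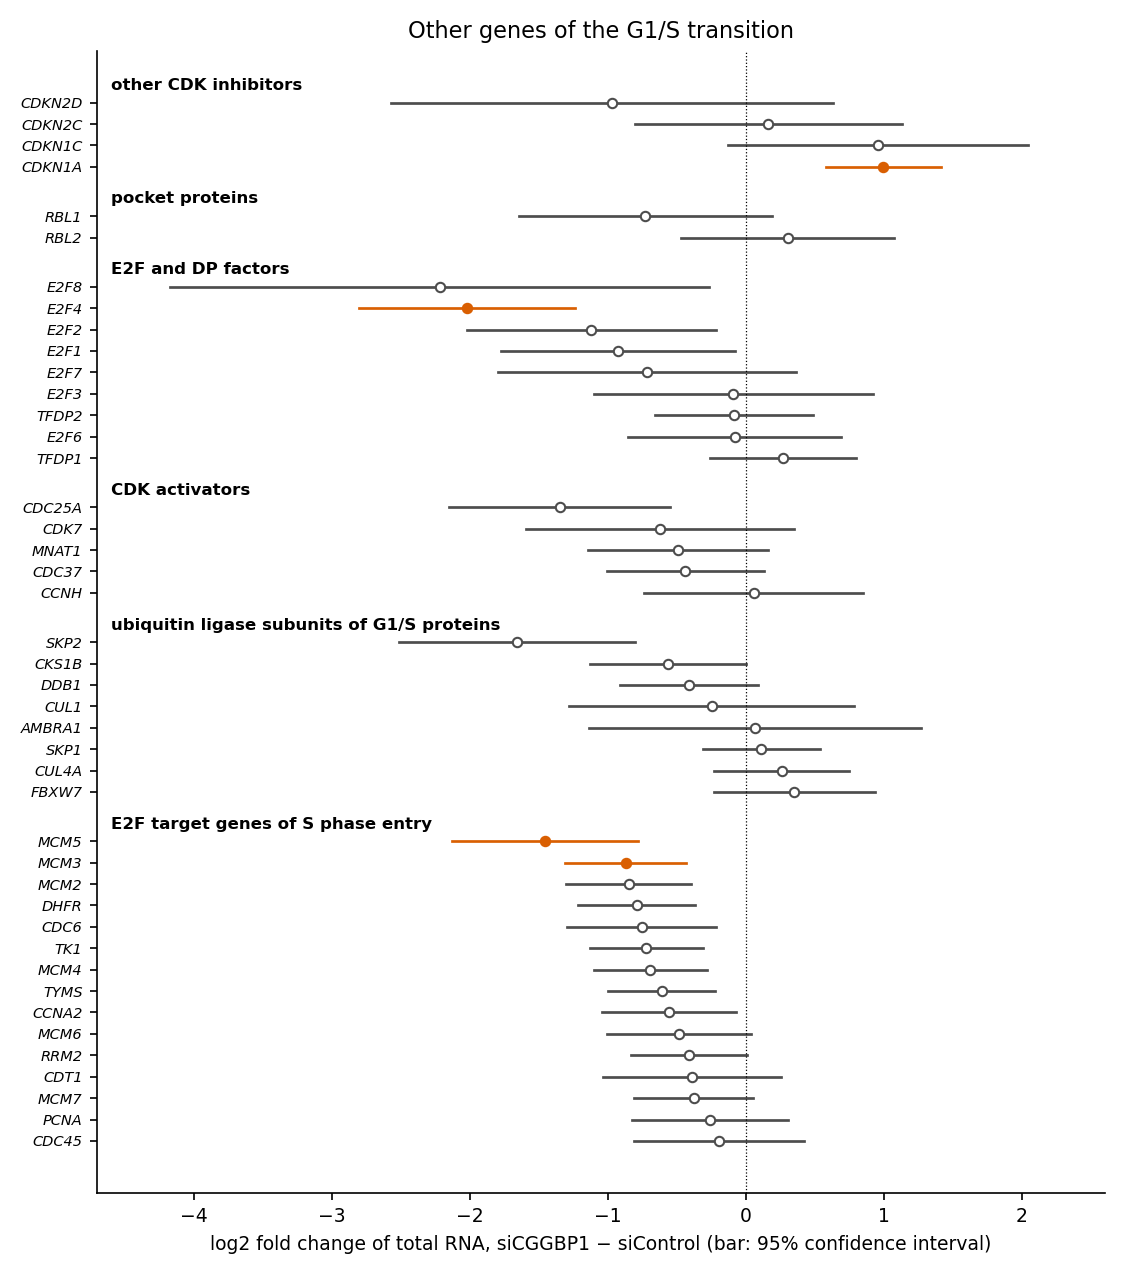
Log2 fold change of total RNA, siCGGBP1 against siControl, with its 95% confidence interval for the 43 tested genes of the other G1/S lists, filled where the adjusted p is under 0.05. CDKN1A passes above 0, E2F4, MCM3 and MCM5 pass below 0, and all 15 E2F target genes of S phase entry lie below 0.

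In new RNA 0 of these 43 genes passed (edgeR), 0 had an unadjusted p under 0.05, and DESeq2 called 0. Markers of the cell line moved with the knockdown as well: of the 6 bone and mesenchymal markers 4 were tested, and COL1A1 (log2 fold change 1.31, adjusted p = 0.00353) and SPARC (1.27, adjusted p = 0.00634) passed as higher. The summed level of the 6 ran from 3495 to 4399 CPM in siControl and from 5294 to 7266 in siCGGBP1, and that of the 5 markers of other cell types from 5.38 to 8.17 and from 7.47 to 13.1. The part of these markers in the results above was not tested.

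Over the 6 libraries, the tested genes whose log2 level was most like that of CCND1 were TMEM200C (Pearson r = 0.999) and TGFA (r = 0.998), a ligand of the EGF receptor. For CCND2 they were SEPT2 (r = 0.998), a septin, and F8A1 (r = 0.994), which has near-identical copies that may share its reads. These values describe only 6 libraries in 2 groups, between which CCND1 and CCND2 themselves differ. None of the 4 genes passed the edgeR test (log2 fold changes −1.41, −0.92, 0.81 and 0.78, adjusted p = 0.0863, 0.370, 0.0622 and 0.146).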

How the data were processed

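SLAM-Seq was performed on U-2OS cells, with 3 siControl and 3 siCGGBP1 libraries compared and 2 siControl libraries listed beside them. The expected counts of reads, conversions and covered T were deposited by the authors as the output of GRAND-SLAM 2.0.7, after bowtie2 2.3.0 had removed ribosomal reads and STAR 2.5.3a had mapped the rest to the human genome (Ensembl 90). The new-to-total ratio was deposited by the authors as a fraction (maximum a posteriori value, posterior mean and credible limits).

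Counts were rounded and were not further filtered than by the requirement of 100 reads in 3 or more of the 6 compared libraries. New RNA was reads times the ratio. For either measure, edgeR 4.0.16 in R 4.3.3 gave quasi-likelihood tests with TMM scaling and no covariates, and p-values were adjusted by Benjamini-Hochberg over the 10138 genes kept. The standard error is the absolute log2 fold change over the square root of F. Ratios were compared by exact permutation tests (scipy 1.17.1). Alternatives were DESeq2 1.42.0, other filters and scalings, a replicate block and leaving out libraries, and leaving out the third replicate of both groups was added after seeing the data. The fits were tested on simulated data. Gene positions are from GENCODE 44 (GRCh38) and promoter windows from RefSeq.

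Named genes were the 10 genes, CGGBP1, each gene of the other lists that passed, the gene of lowest p in a list where none passed, and the 2 genes most like each cyclin that passed. CDKN1C, E2F1, E2F2 and the markers were named besides. The genes and lists were chosen with earlier results of these data known. No molecular identifiers were counted, so reads can be copies of 1 molecule and limits from 0 reads cover counting error only. Spike-in reads were not used here.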

Additional observations from a re-analysis of the deposited data

Results flagged for a closer look

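The siControl library with 200 µM 4sU entered no comparison. In it, 7 of the 10 genes had more T-to-C conversions per 100 covered T than in the library without 4sU, which is why it was looked at. Over 9968 tested genes with covered T in both libraries, 59.7% had more, and nothing particular to the 10 genes is read from the count. CDK6 was highest, at 1.77 against 0.0411, followed by CCND2 (0.582 against 0.161) and CCND1 (0.442 against 0.162). CCND3 (0.181 against 0.407), CDK2 (0.00935 against 0.0240) and RB1 (0.00291 against 0.00297) were not higher. Both are single libraries, so the differences have no replicate check. With 3 libraries in each group, no group was large enough for a test of single outlying libraries.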

How the results depend on the processing

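CCND1, CCND2 and CDK4 passed in total RNA under the DESeq2 test, DESeq2 size factors, both other filters, the replicate block (3 genes) and without replicate 3 of both groups, and 1 to 3 of them passed when 1 library was left out. Of the other G1/S genes 4 passed, against 11 with DESeq2, 10 with no filter, 9 with the replicate block, 10 without both replicates 3 and 0 to 5 when 1 library was left out. Over all tested genes 181 passed in total RNA, against 619, 477 and 406 with DESeq2, no filter and no replicates 3, and 48 to 163 when 1 library was left out. In new RNA 5 passed, against 27 with DESeq2, 19 by conversion counts, 2 with the block, 10 without both replicates 3 and 3 to 6 when 1 library was left out. The sign of estimates that did not pass changed for CCND3 in new RNA (−0.062 with TMM on new reads, −0.083 with the block, −1.28 without both replicates 3), CCNE1 in new RNA (0.029 by conversion counts, 3.07 with the block, 4.50 without both replicates 3) and CGGBP1 in new RNA (0.42 without both replicates 3). It also changed when 1 library was left out, in total RNA for CCNE1 (−0.77 to 0.022) and CDK2 (−0.10 to 0.14), and in new RNA for CCND3 (−0.96 to 0.90), CCNE1 (−1.50 to 3.91), CDK4 (−0.64 to 1.90) and CGGBP1 (−2.11 to 0.18). The causes were not tested. In log2 levels centred on the group means, same-numbered libraries correlated by 0.109, 0.182 and 0.0886. Libraries of unlike number correlated by −0.104 to −0.0244, so each siControl library correlated best with its own number. The main fit did not pair the samples, and whether same-numbered libraries share a batch was not tested. Between 2 and 3 genes had ratios that did not overlap when 1 library was left out.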
